A study of Homo sapiens with 2 samples.

Results

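Transcripts of 10 genes that take up, store and release iron were followed in HSC-3 cells given FIN56, a small molecule that induces ferroptosis. The genes were TFRC, STEAP3, SLC11A2, FTH1, FTL, NCOA4, SLC40A1, HMOX1, ACO1 and IREB2. They were chosen by function, with earlier results of these data known, and found by symbol. All 10 are among the 60616 genes of the deposited tables. HSC-3 is a long-established line from a human squamous carcinoma of the tongue, and both cultures were of this 1 line. One library was made from cells with 0.1% DMSO, the vehicle, and 1 from cells with 1 µM FIN56 for 48 h, a dose that the study describes as sublethal. The labels give the time of the FIN56 library only. With 1 library per condition no difference has a replicate check and no test between the conditions was possible, so all values below compare the 2 libraries. In bulk RNA, fewer cells of a type and less RNA per cell cannot be told apart.

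Cells bring in iron bound to transferrin through the transferrin receptor, reduce it in the endosome and pass it to the cytosol. Iron that is not used is kept inside ferritin, a shell of heavy and light chains, from which it is freed when ferritin is broken down in lysosomes. Ferroportin carries iron out of the cell, and heme oxygenase frees it from heme. Iron regulatory proteins bind stem-loops called iron-responsive elements (IREs) when iron is scarce. Binding in the 5′ untranslated region (UTR) of a messenger RNA (mRNA) blocks translation, as in ferritin and ferroportin, and binding in the 3′ UTR protects the mRNA from decay, as in the transferrin receptor. Iron in the cell feeds the lipid peroxidation that drives ferroptosis, which is why these genes are often examined with ferroptosis inducers.

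The stem-loops are shown first, because the step that this control acts on depends on their place, translation for the 5′ UTR and decay for the 3′ UTR. RNA levels can also change in other ways. The canonical mRNAs of GENCODE release 44 (GRCh38) were searched, on the sense strand and within a UTR, for a bulged C, any 5 bases and the loop CAGTGN. Those 5 bases had to be able to pair with the 5 after the loop, G with T included. Of 19688 protein-coding mRNAs, 0.0965% held this form in the 5′ UTR and 0.615% in the 3′ UTR. Among the 10 iron genes 4 held it, with 7 stem-loops in all. These are the genes of ferritin, ferroportin and the transferrin receptor, named above for their IREs. The matches were thus known beforehand and are no test of enrichment. Elements with another loop or without the bulged C are not counted, so these need not be all the IREs of a gene. Capitals mark the bulged C and the loop of 6 bases, and each window of 30 bases is given 5′ to 3′ on the strand of the gene. The positions are chr11:61967573-61967602 (minus strand) for FTH1, chr19:48965335-48965364 (plus) for FTL and chr2:189580660-189580689 (minus) for SLC40A1, all in exon 1 and in the 5′ UTR. Those of TFRC lie in exon 19 and in the 3′ UTR, on the minus strand, at chr3:196050978-196051007, chr3:196050574-196050603, chr3:196050509-196050538 and chr3:196050462-196050491.
FTH1: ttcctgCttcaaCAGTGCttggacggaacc
FTL: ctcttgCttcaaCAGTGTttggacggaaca
SLC40A1: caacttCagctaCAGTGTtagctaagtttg
TFRC stem-loop 1: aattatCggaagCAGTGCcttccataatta
TFRC stem-loop 2: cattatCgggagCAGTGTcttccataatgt
TFRC stem-loop 3: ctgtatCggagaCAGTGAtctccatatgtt
TFRC stem-loop 4: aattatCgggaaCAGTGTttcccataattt

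With 4 of the 5 pairs, a form that 4.7% of the mRNAs held in a UTR (full stems included), 3 more members matched in the 3′ UTR. SLC11A2, whose mRNA is made in forms with and without an IRE, matched at chr12:50988268-50988297 (minus strand, exon 16). ACO1 and IREB2, which encode the iron regulatory proteins themselves, also matched in this looser search. A match describes letters and does not show that a protein binds there.
SLC11A2: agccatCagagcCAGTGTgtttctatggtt

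**Figure D1:**
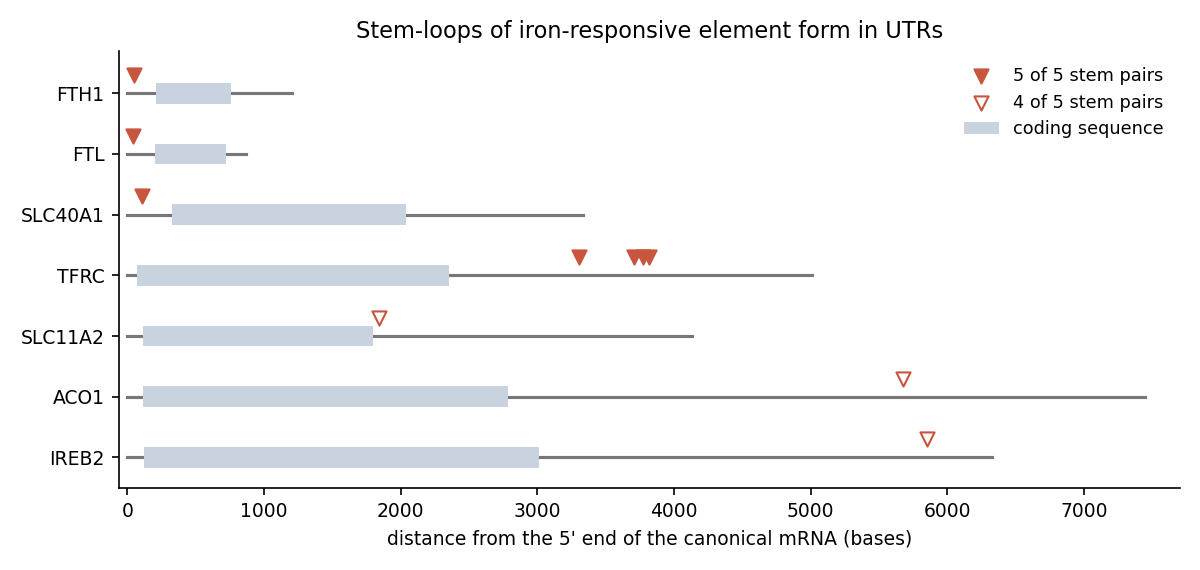
Canonical mRNAs of 7 iron genes drawn to scale from the 5′ end in bases, with the coding sequence as a box, UTRs as lines and stem-loops as triangles (filled for 5 of 5 pairs, open for 4 of 5). FTH1, FTL and SLC40A1 carry 1 filled triangle each before the coding sequence, and TFRC carries 4 after it.

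Library totals were 70184517 expected counts with DMSO and 73062209 with FIN56, where an expected count is the RSEM estimate of a gene's reads, with ambiguous reads shared out among the candidates. Levels are given as FPKM, fragments per kilobase of effective gene length, scaled to library size, and changes as the FPKM ratio, FIN56 over DMSO. The squamous markers listed for the line (KRT5, KRT14, KRT6A, KRT17, TP63, SFN, DSG3, CDH1 and EPCAM) were all measured, with a summed TPM (a length-scaled share of all transcripts) of 8305 with DMSO and 7705 with FIN56. KRT5 and SFN, among the most abundant, had FPKM ratios of 0.792 and 0.781, whereas 5 of the 9 were above 1 (EPCAM 1.44, KRT17 1.24) and the median log2 ratio of the list was 0.11. PTPRC and CD3E of leukocytes, COL1A2 of fibroblasts, HBB and HBA1 of red cells, and ALB and TTR of hepatocytes had no counts in either library. A count of 0 allows for up to 3 counts in a library of this size. Among the 4 fibroblast markers COL1A1 had an FPKM of 4.25 and 2.19, and the list summed to a TPM of 7.41 and 4.14. The 6 leukocyte and macrophage markers summed to a TPM of 91.8 and 46.2, most of it CD68, a lysosomal protein also found outside macrophages, at 85.7 and 37.6. CD14 went the other way, from a TPM of 5.41 to 7.87, with a count ratio of 1.39 (1.21 to 1.61). Their part in the results was not tested.

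None of the 10 iron genes had an FPKM ratio of 1.5 or more, the criterion of the study, and none had one of 1/1.5 or less. Of 24454 genes whose FPKM exceeded 0 in each library, 14.7% were higher and 17.3% were lower by these limits. With a minimum of 100 expected counts per library, which 12659 genes and 9 of the 10 reach, the shares were 3.7% and 6.84%. Iron genes with a ratio above 1 were FTL, HMOX1, FTH1 and TFRC, and the other 6 were below 1. The median log2 FPKM ratio of the 10 genes was -0.11, against 0 for the 24454 genes. For the 9 iron genes with at least 100 counts per library it was -0.106, against 0.027 for the 12659 genes. The 25th and 75th percentiles of the 12659 genes were ratios of 0.863 and 1.17, and the 95th was 1.45.

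By expected counts, 4 of the iron genes had a 95% counting interval wholly above 1 and 5 had one wholly below. Such intervals are common at this depth: 23.4% of the 24454 genes were above and 23.1% below, and 38.4% and 36.6% of those with at least 100 counts. They cover counting error only, without the spread between cultures. SLC40A1 was the iron gene whose interval included 1.

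**Figure D2:**
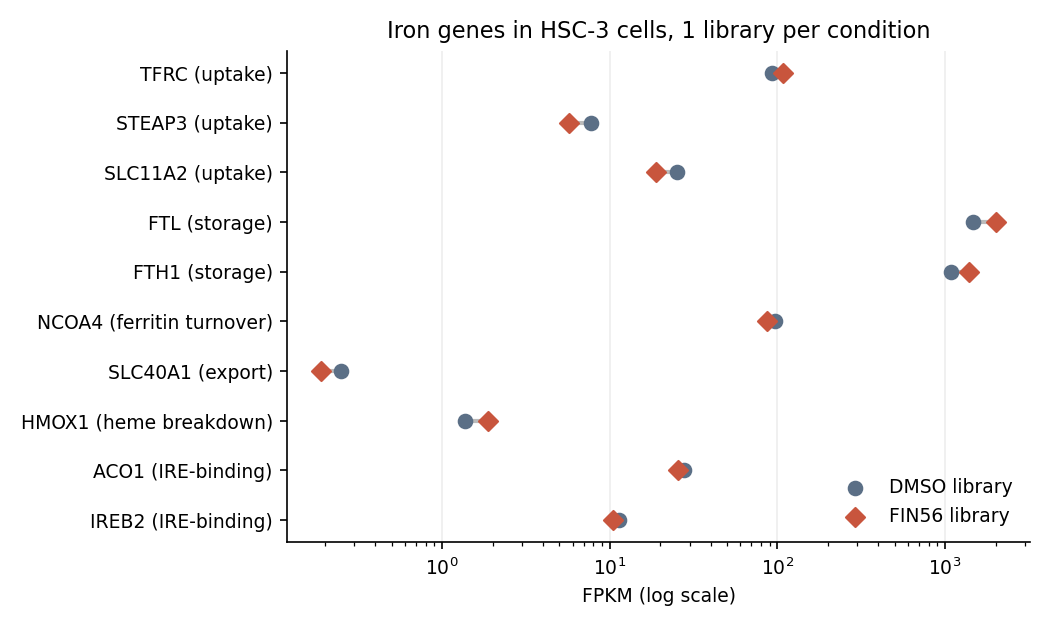
FPKM of each iron gene on a log axis, with a circle for the DMSO library and a diamond for the FIN56 library, 1 library each. Levels run from SLC40A1 at 0.25 and 0.19 to FTL at 1473 and 2012, and the ferritin chains lie about a power of 10 above every other gene.

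The levels spanned 4 orders of magnitude, with the ferritin chains at the top. In the DMSO library the order by FPKM was FTL, FTH1, NCOA4, TFRC, ACO1, SLC11A2, IREB2, STEAP3, HMOX1 and SLC40A1. In the FIN56 library TFRC stood above NCOA4, and the order was otherwise the same. Whether neighbours in this order differ beyond the spread of cultures cannot be told from 1 library each.

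Ferritin transcripts were more abundant in the FIN56 library, for the light chain more than for the heavy chain. FTL (ENSG00000087086, chr19:48965309-48966879, plus strand) encodes the light chain, which helps iron settle in the core of the shell. Its FPKM stood at 1473 with DMSO and at 2012 with FIN56, a ratio of 1.37, and its expected counts were 79837 and 113561. The count ratio was 1.37 with an interval of 1.35 to 1.38. By TPM it was the gene of rank 70 among all genes with DMSO and of rank 28 with FIN56. Of the genes with at least 100 counts in both libraries, 7.83% had a ratio as high or higher.

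FTH1 (ENSG00000167996, chr11:61959718-61967634, minus strand) encodes the heavy chain, whose ferroxidase center oxidises ferrous iron so that it can be stored. The FPKM of the gene was 1091 in the DMSO library and 1384 after FIN56, a ratio of 1.27. The count ratio was 1.264 (95% counting interval 1.25 to 1.28), and 13.9% of genes with at least 100 counts had a ratio as high or higher. Both chains together made up 0.383% of all transcripts by TPM with DMSO and 0.519% with FIN56. Within each library FTL stood above FTH1, by 1.35 times with DMSO and by 1.45 times with FIN56 on the FPKM scale. The change of this ratio, 1.08 (counting interval 1.06 to 1.09), is the same for any scaling by 1 factor per library.

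Ferritin genes have many processed pseudogenes, and reads that fit both a parent and a copy are divided between them. Of the windows of 50 bases in the canonical mRNA, 41.3% for FTH1 and 18.5% for FTL were found letter for letter in an annotated pseudogene transcript. The 25 FTH1 pseudogene rows held 178 expected counts with DMSO and 218 with FIN56, which is 0.308% and 0.287% of the counts of FTH1. The 16 FTL pseudogene rows held 82.6 and 167, or 0.103% and 0.147% of the counts of FTL. Adding these rows to their parents left the count ratios at 1.264 for FTH1 and 1.37 for FTL. One copy had whole counts and a larger difference, FTLP14, with 26 counts with DMSO and 77 with FIN56. It is named here after its values were seen.

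NCOA4 (ENSG00000266412, chr10:46005088-46030623, minus strand) encodes the receptor that carries ferritin to the lysosome, a step known as ferritinophagy. It had an FPKM of 97.3 with DMSO, against 86.5 with FIN56, a ratio of 0.889, with a count ratio of 0.885 (0.868 to 0.901). The NCOA4 transcript was thus lower in the library in which the transcripts of its cargo, ferritin, were higher. Protein levels and ferritinophagy were not measured. The FPKM of FTH1 was 11.2 times that of NCOA4 with DMSO and 16.0 times with FIN56. Of the genes with at least 100 counts, 28.2% had a ratio as low as that of NCOA4 or lower, so its own difference was of an ordinary size.

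**Figure D3:**
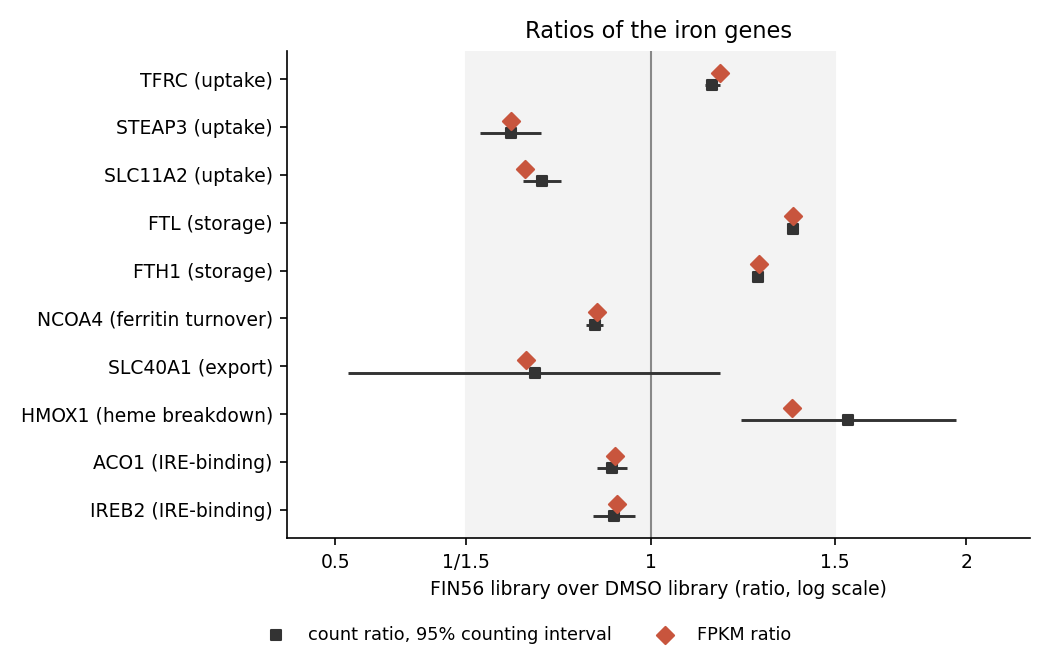
FIN56 over DMSO ratio of each iron gene on a log axis, with diamonds for the FPKM ratio and squares with bars for the expected count ratio and its 95% counting interval, and shading between 1/1.5 and 1.5. Every diamond lies in the shaded range, FTL, FTH1, TFRC and HMOX1 lie to the right of 1, and the square of HMOX1 lies just past 1.5.

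The genes of iron uptake lay on both sides of a ratio of 1. TFRC (ENSG00000072274, chr3:196012511-196082153, minus strand), the transferrin receptor, had an FPKM of 92.5 with DMSO and 108 with FIN56, a ratio of 1.16. Its counts of 29881 and 35627 gave a count ratio of 1.15 with an interval of 1.13 to 1.16. A ratio this high or higher was found for 25.9% of the genes with at least 100 counts. Transcripts of TFRC, with stem-loops in the 3′ UTR, and of the ferritin chains, with theirs in the 5′ UTR, were all higher in the FIN56 library. Control by iron regulatory proteins was not tested. The ferritin difference was the larger one, and TFRC over FTH1 went from 0.0848 with DMSO to 0.0777 with FIN56 by FPKM, a change of 0.917 (counting interval 0.9001 to 0.935).

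STEAP3 (ENSG00000115107, chr2:119223831-119265652, plus strand) encodes the reductase that turns ferric into ferrous iron in the transferrin endosome. Per length it reached an FPKM of 7.76 with DMSO and of 5.71 with FIN56, and its ratio of 0.736 was the lowest of the 10 genes. The count ratio was 0.735 (0.687 to 0.786). Its expected counts of 1962 and 1501 were not whole numbers, so some reads were divided with another gene. SLC11A2 (ENSG00000110911, chr12:50979401-51028566, minus strand) encodes DMT1, the carrier that moves ferrous iron from the endosome into the cytosol. The DMSO library had an FPKM of 25.03 for it and the FIN56 library one of 19.0, a ratio of 0.758, with a count ratio of 0.787 (0.756 to 0.820). Ratios as low or lower were found for 11.2% of genes for STEAP3 and 13.1% for SLC11A2. The ratio of TFRC thus lay above 1, and those of STEAP3 and SLC11A2 lay below it. By FPKM, TFRC over STEAP3 went from 11.9 to 18.8, and TFRC over SLC11A2 from 3.69 to 5.67. The tables are per gene and do not separate the SLC11A2 mRNAs with the stem-loop from those without it.

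SLC40A1 (ENSG00000138449, chr2:189560590-189583758, minus strand) encodes ferroportin, the iron exporter, and was barely present. It had 57 expected counts with DMSO and 46 with FIN56, at an FPKM of 0.25 and 0.19. The count ratio of 0.775 had an interval of 0.514 to 1.16, so no difference was detectable at this depth. HMOX1 (ENSG00000100292, chr22:35380361-35394214, plus strand) encodes the inducible heme oxygenase and is a well-known target of NRF2 and of the heme-sensing repressor BACH1. It was also low, with an FPKM of 1.37 with DMSO and 1.87 with FIN56, a ratio of 1.36. Its 119 and 191 counts gave a count ratio of 1.54 with an interval of 1.22 to 1.955, so the gene is below 1.5 by FPKM and above it by counts. The 2 ratios part because the effective length implied by counts and FPKM was 1238 bases with DMSO and 1398 with FIN56.

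The transcripts of the iron regulatory proteins differed little between the libraries, and the proteins were not measured. ACO1 (ENSG00000122729, chr9:32384603-32454769, plus strand) encodes IRP1, which acts as a cytosolic aconitase when it holds an iron-sulfur cluster. An FPKM of 27.6 was found with DMSO and one of 25.5 with FIN56, a ratio of 0.924. IREB2 (ENSG00000136381, chr15:78437431-78501453, plus strand) encodes IRP2, which is degraded when iron is plentiful. Its FPKM was 11.3 and 10.5, a ratio of 0.929. Count ratios were 0.918 (0.888 to 0.950) for ACO1 and 0.922 (0.881 to 0.966) for IREB2. Of the genes with at least 100 counts, 33.5% and 34.2% had ratios as low or lower. IREB2 over ACO1 was 0.408 with DMSO and 0.410 with FIN56, a change of 1.01 whose counting interval of 0.950 to 1.06 included 1.

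**Figure D4:**
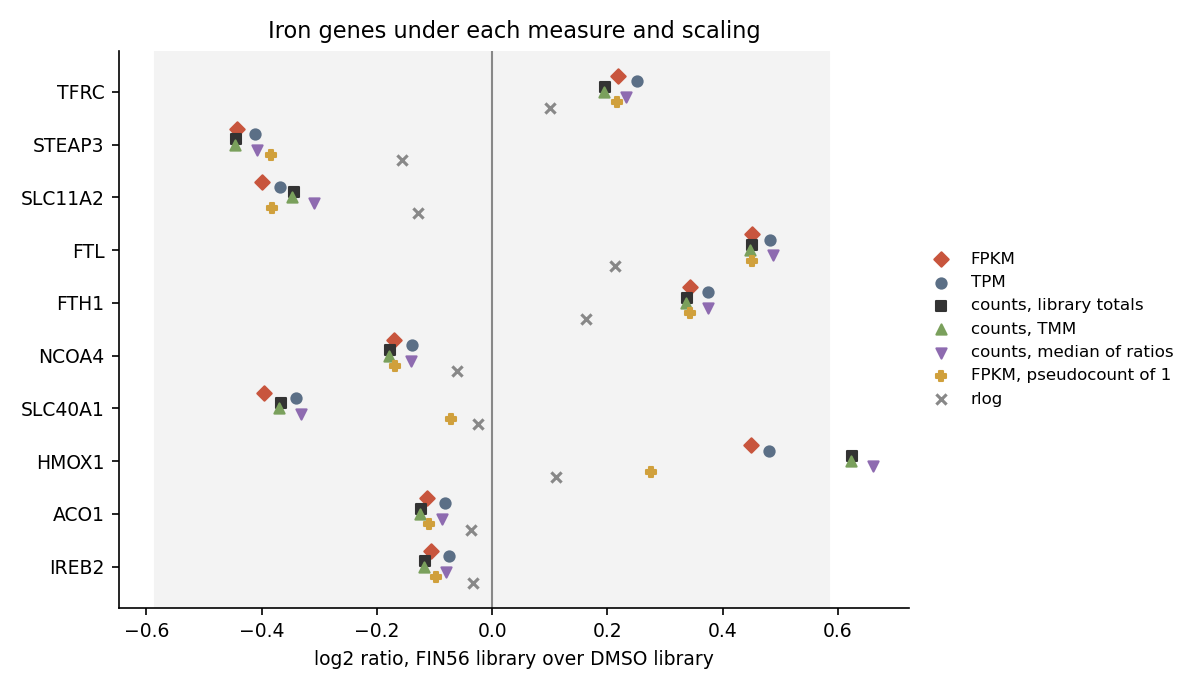
Log2 ratio, FIN56 over DMSO, of each iron gene under 7 measures and scalings, with shading between 1/1.5 and 1.5. Each gene keeps its side of 0 under all 7, the rlog values lie nearest to 0, and HMOX1 passes 1.5 by the 3 count-based values.

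Beyond the 10 genes, 9 lists of genes of iron and heme handling and of NRF2 targets held 99 genes, of which 82 had 100 or more expected counts over the libraries and an FPKM above 0 in each. Of these, 2 had an FPKM ratio of 1.5 or more and 4 had one of 1/1.5 or less, shares of 2.44% and 4.88%. Over all 14247 genes with the same minimum the shares were 5.37% and 8.85%, so calls were no more frequent in the lists. By count ratio, a measure added after seeing the data, 1 list gene was past the upper limit and 6 past the lower, as MELTF and UROD passed and FLVCR1 did not, against 4.6% and 8.93% of the 14247 genes. The median log2 FPKM ratio of the 82 genes was 0.017. The 6 genes past a limit by FPKM belonged to uptake, heme transport and heme synthesis.

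Of 8 other uptake genes with enough counts, SLC39A8 was past the upper limit and HFE past the lower. Over all genes with the same minimum, 5.37% and 8.85% were past these limits. SLC39A8, a ZIP carrier of zinc, manganese and iron, had an FPKM of 8.9 with DMSO and 13.45 with FIN56, a ratio of 1.51 (count ratio 1.54, 1.45 to 1.63). HFE, the protein mutated in hereditary hemochromatosis and a partner of the transferrin receptor, had an FPKM of 7.31 and 3.76, a ratio of 0.514 (count ratio 0.547, 0.498 to 0.599). SLC39A14, the related ZIP carrier, stood at 1.00, with an FPKM of 36.6 and 36.7. LCN2, a secreted protein that binds iron-loaded siderophores, had a ratio of 0.689, and MELTF, an iron-binding membrane protein related to transferrin, one of 0.687. By counts MELTF was at 0.601 (0.567 to 0.638), past the lower limit. TF, the gene of transferrin itself, had 10 counts with DMSO and 11 with FIN56.

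Heme synthesis was the list with the lowest median, -0.26 on the log2 scale, with 6 of its 8 genes below a ratio of 1 and 2 past the lower limit, or 3 by counts, against 8.85% and 8.93% of all genes with the same minimum. With 8 genes these are small counts. PPOX, the enzyme before the last step, had an FPKM of 10.3 with DMSO and 4.2 with FIN56, a ratio of 0.409 (count ratio 0.405, 0.353 to 0.465). Its counts were not whole numbers. FECH, which inserts iron into protoporphyrin, had an FPKM of 4.62 and 3.07, a ratio of 0.665 (count ratio 0.605, 0.537 to 0.680). UROD, an earlier enzyme of the pathway, had an FPKM ratio of 0.686 and a count ratio of 0.652 (0.624 to 0.681). ALAS1, the rate-limiting enzyme outside red cells, had the highest ratio of the list at 1.264, and the red cell form ALAS2 had 3 counts with DMSO and 0 with FIN56.

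Among 9 genes of heme breakdown and transport, FLVCR1 was past the upper limit and LRP1 past the lower. The shares over all genes with the same minimum were 5.37% and 8.85%. FLVCR1, a membrane carrier long described as a heme exporter, had an FPKM of 9.0 with DMSO and 14.7 with FIN56, a ratio of 1.64, with a count ratio of 1.47 (1.39 to 1.55) that was below 1.5. LRP1, a receptor of many ligands that takes up heme bound to hemopexin, had an FPKM of 15.5 and 8.22, a ratio of 0.531 (count ratio 0.532, 0.517 to 0.548). The heme oxygenase that is always present, HMOX2, was far more abundant than HMOX1 per length, with an FPKM of 74.7 and 77.7 and a ratio of 1.04. BACH1 had a ratio of 0.870, and the biliverdin reductases BLVRA and BLVRB had ratios of 0.901 and 1.05.

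The other 6 lists are those without a gene past a limit by FPKM, so 0 by FPKM follows from how they were picked. By counts, 0 of their 57 genes with enough counts were past a limit. Count ratios come from the same reads and are no independent check. Over all 9 lists the FPKM shares were 2.44% and 4.88%, against 5.37% and 8.85% of all genes with the same minimum. By counts, 1 of the 82 list genes was past the upper limit and 6 past the lower, against 4.6% and 8.93% of all genes. Of 7 genes of ferritin loading and turnover, 5 had a ratio above 1, among them PCBP1 and PCBP2, chaperones that hand iron to ferritin, at 1.12 and 1.11. ATG5 at 1.32 and ATG7 at 0.756, both needed to form autophagosomes, were the extremes of that list. FBXL5, the ubiquitin ligase subunit that marks IRP2 for degradation when iron is present, had a ratio of 1.07. The copper-dependent ferroxidases that work beside ferroportin differed in level, as HEPHL1 had 4289 counts with DMSO and 5765 with FIN56 (ratio 1.29), and HEPH 3 in each. Over 21 genes of mitochondrial iron and iron-sulfur assembly the median log2 ratio was 0.095, between FDXR at 0.735 and IBA57 at 1.259. Over 9 genes of cytosolic iron-sulfur assembly it was -0.085, with MMS19 lowest at 0.724. The 10 NRF2 targets outside iron handling had a median log2 ratio of 0.055. TXNRD1 was highest at a ratio of 1.23, and TALDO1 and NQO1 were lowest at 0.740 and 0.770. The list thus lay on both sides of 1, and its relation to the HMOX1 and ferritin transcripts was not tested.

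**Figure D5:**
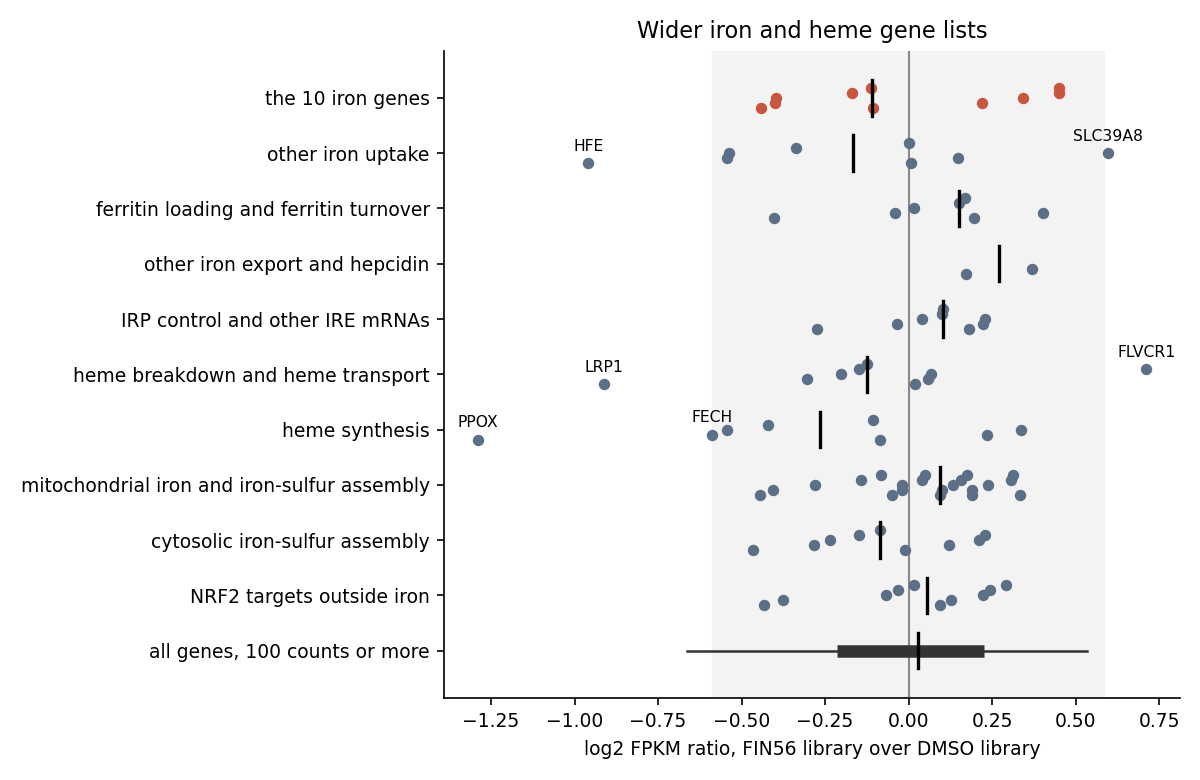
Log2 FPKM ratio of each gene with 100 or more expected counts over the libraries, by list, with a vertical bar at the median of the list and shading between 1/1.5 and 1.5. The bottom row gives the 5th to 95th percentile (line) and the 25th to 75th (bar) of the 12659 genes with at least 100 counts in both libraries, and PPOX, HFE, LRP1, FECH, SLC39A8 and FLVCR1 are the genes outside the shading.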

How the data were processed

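RNA from HSC-3 cells was made into stranded mRNA libraries (per the labels, Illumina TruSeq), 1 for DMSO and 1 for FIN56. By the methods of the study, written for its tumor samples, the authors trimmed reads with AfterQC, aligned them to GRCh38 with STAR 2.6.1a and ran RSEM 1.3.1. The authors deposited RSEM expected counts, without normalization and partly fractional. They also deposited FPKM, which the table gives to 2 decimals and which corrects for depth and effective length. The deposited TPM column gives each gene's length-scaled share of transcripts. A deposited table of rlog values, in log2 units, came from DESeq2 1.26.0.

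FPKM ratios were formed for genes above 0 in both libraries, with limits of 1.5 and 1/1.5. Count ratios were scaled by library totals, with exact Clopper-Pearson intervals (95%) on expected counts rounded to whole numbers. The reads carry no molecular identifiers and are not independent molecules, so intervals and the limit set by a count of 0 (3 counts) cover counting error only. Intervals of a ratio between 2 genes came from the summed Poisson variances on a log scale. Alternatives were TPM, rlog, TMM (edgeR 4.0.16), median-of-ratios (DESeq2 1.42.0), library totals, pseudocounts, filters and a limit of 2. The steps were tested on simulated data.

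The 10 genes and the lists were chosen with earlier results of these data known. All 10 genes are described. From the lists, every gene with at least 100 counts together that was past a limit was named. Some, but not all, of those among the 3 highest or lowest ratios of a list were named too. Some others were named for their role, with their values. Some listed genes are not reported here. Gene positions and mRNA sequences are those of GENCODE release 44 on GRCh38, a later annotation than that of the authors, and all 10 genes were found in it. Python 3.11.15 with scipy 1.17.1 and R 4.3.3 were used.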

Additional observations from a re-analysis of the deposited data

How the results depend on the processing

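No paired analysis was possible because DMSO and FIN56 are represented by a single library each. Leaving out replicates was likewise not possible. None of the 10 iron genes was past 1.5 or 1/1.5 by FPKM ratio. This count became 1 at the upper limit, with HMOX1, by expected counts scaled by library totals, by TMM factors or by median-of-ratios size factors, and stayed at 0 under the other alternatives run. At the lower limit it was 0 under every alternative run. Filters, pseudocounts and the limit of 2 could not add a gene at either limit, so their 0 is no check. The median log2 ratio of the 10 genes, -0.11, was -0.029 by rlog values, a shrunken log scale. FTL over FTH1 changed by 1.08 and by 1.03 with rlog values, and TFRC over FTH1 by 0.917 and by 0.958 with rlog values. No iron gene changed direction under any alternative run, though filters and pseudocounts could not have reversed one. Of the 98 values of single genes under the alternatives, 80 lay closer to the FPKM value than the half-width of its counting interval. The other 18 lay further away, all of them by TPM, rlog or count-based values. Filters on FPKM or counts only drop genes and leave the ratios unchanged, so their values are among the 80 by construction. The pseudocount values were all among the 80 too, and a pseudocount barely shifts an abundant gene. Of the 82 list genes, 2 were higher and 4 lower by FPKM, and 1 and 6 by expected counts. The filter of at least 100 counts in both libraries was added after seeing the data. The median log2 ratio of all genes lay between -0.033 and 0.028 under these settings, so no scaling moved it by more than 0.1.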
